A study of Mus musculus with 4 samples.

Results

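The genes described here encode the nuclear subunits of the mitochondrial respiratory chain and of ATP synthase. They were chosen by symbol alone, as the genes named Nduf, Sdh, Uqcr, Cox or Atp5 with a subunit letter or number. The rule found 82 of the 23259 genes listed by the deposited tables, of which 36 belong to complex I, 4 to complex II, 8 to complex III, 17 to complex IV and 17 to complex V, the ATP synthase. Atp5s and Atp5sl match the name pattern and are counted with complex V, but their products are not subunits of the enzyme. Ndufa4 is counted with complex I by its name, although its product is now placed in complex IV. The subunits encoded by mitochondrial DNA were not analysed here.

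The study sequenced RNA from mouse T cells in 2 experiments and 4 libraries, a single one (n = 1) for each group. In the first, splenic regulatory T cells (Treg) were purified as hCD2-positive cells from Balb/c Foxp3-hCD2 reporter mice, in which human CD2 marks cells that express Foxp3, the transcription factor that defines Treg. One group was untreated and the other drank water with 3% dextran sulfate sodium (DSS), a polymer that injures the colon epithelium, for 7 days. In the second, wild-type C57BL6 animals gave naive CD4 T cells, which were transduced with either a mock or a Sox12 vector. Sox12 is a SoxC transcription factor, and both groups of that experiment were transduced. The labels give neither the ages nor the number of animals. Because each group is 1 library, no test was possible and every difference below is one between libraries, without a replicate check.

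The respiratory chain passes electrons from NADH (through complex I) and from succinate (through complex II) to ubiquinone, then through complex III and cytochrome c to complex IV, which reduces oxygen. Complexes I, III and IV pump protons across the inner mitochondrial membrane, and complex V uses the resulting gradient to make ATP. Naive T cells and Treg are known to depend on oxidative phosphorylation, while recently activated T cells also use glycolysis heavily. Many of the nuclear genes for these subunits are known targets of nuclear respiratory factor 1 (NRF-1) and of the ETS factor GABP.

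RNA for these subunits was abundant in all 4 libraries. The unit is FPKM, fragments per kilobase of transcript scaled to the size of the library. The median over the 77 subunit genes past the filter (a mean of at least 1 FPKM in the 2 libraries of an experiment) was 49.7 (untreated Treg) and 51.6 FPKM (DSS Treg), against 12.5 and 12.9 FPKM over all genes past it. Over the 76 that passed in the vector experiment it was 99.7 (mock vector) and 93.8 FPKM (Sox12 vector), against 12.8 and 13.1 FPKM over all genes. The subunit genes together made up 1.62% and 1.68% of the summed FPKM in untreated and DSS Treg, and 2.18% and 2.07% with the mock and Sox12 vectors. The tables of the experiments were made separately and the cells differ in strain, tissue and culture, so the higher level in the vector libraries is given as a description only.

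Promoters are shown first, because the subunit genes are known for shared promoter elements. RefSeq promoter entries on GRCm38.p6 were found for 68 of the 82 genes, giving 74 windows of the 250 bases before a start site. For 62 of the 74, the 25 bases after the start were found in the early part of an annotated transcript of the gene. All 74 were counted, so some may not lie before an annotated start. A core of the NRF-1 motif, CGCATGCG, searched on both strands, stood in 7 of the 74 windows (9.46%) and in 1.55% of 32851 promoters of all genes. The windows with it are printed below, 5′ to 3′ on the gene's strand, with the motif in capitals.

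Atp5g2, chr15:102671061-102671108, minus strand: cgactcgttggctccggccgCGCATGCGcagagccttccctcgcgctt
Atp5j, chr16:84835096-84835143, minus strand: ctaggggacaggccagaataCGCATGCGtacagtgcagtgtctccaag
Atp5k, chr5:108434421-108434468, minus strand: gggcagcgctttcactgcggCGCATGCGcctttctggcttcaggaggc
Atp5l, chr9:44920956-44920992, minus strand: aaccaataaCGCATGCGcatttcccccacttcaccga
Cox6a1, chr5:115349092-115349139, minus strand: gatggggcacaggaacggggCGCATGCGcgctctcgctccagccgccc
Ndufa11, chr17:56717683-56717730, plus strand: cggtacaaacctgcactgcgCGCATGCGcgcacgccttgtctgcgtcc
Ndufa8, chr2:36049339-36049367, minus strand: cgcttgcgcgtcgctggagaCGCATGCGc

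Of the 7 genes with the NRF-1 core in the window, 4 encode ATP synthase subunits, 2 complex I subunits and 1 a complex IV subunit. With DSS 6 of the 7 were higher, with changes from -0.10 to 0.41, and with Sox12 6 of the 7 were lower, with changes from -0.34 to 0.00. Most subunit genes went the same way in each experiment, as given below. The other 5 motifs searched on both strands were an ETS site CCGGAAG (12 windows, 16.2%, against 6.91% of all promoters), a YY1 site AAGATGGCG (2 windows, 2.70%, against 0.606%), an Sp1 site GGGGCGGGG (10 windows, 13.5%, against 10.4%), an E-box CACGTG (9 windows, 12.2%, against 6.02%) and a Sox site AACAAT (6 windows, 8.11%, against 9.42%). None of these 6 strings contains another. A match is a string of letters and not a binding site, and the absence of one says only that these letters are not in the window. The window was also read for 1 gene of each complex. It was the subunit gene with the lowest Sox12 change among those with a promoter entry and a mean of at least 5 FPKM. Uqcrq of complex III had a lower change than Uqcr10 but no promoter entry. Atp5g2 held the NRF-1 core shown above, Cox6b2 an Sp1 match, and Ndufv3, Sdha and Uqcr10 none of the 6 motifs. Printed here are Ndufv3, with the largest difference between the vector libraries, Uqcr10 of complex III, and Cox6b2, with the largest upward change with DSS, its Sp1 match in capitals.

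Ndufv3, chr17:31519865-31520114, plus strand: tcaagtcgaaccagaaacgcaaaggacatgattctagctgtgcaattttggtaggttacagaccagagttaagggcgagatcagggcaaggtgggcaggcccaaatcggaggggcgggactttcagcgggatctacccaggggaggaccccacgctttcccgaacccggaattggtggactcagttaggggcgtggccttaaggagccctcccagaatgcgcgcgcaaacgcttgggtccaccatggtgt
Uqcr10, chr11:4704345-4704594, minus strand: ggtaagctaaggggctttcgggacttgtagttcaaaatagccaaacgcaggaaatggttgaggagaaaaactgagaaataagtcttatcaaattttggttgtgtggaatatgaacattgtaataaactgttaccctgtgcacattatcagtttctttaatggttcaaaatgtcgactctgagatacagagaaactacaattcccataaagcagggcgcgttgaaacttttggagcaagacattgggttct
Cox6b2, chr7:4753095-4753344, minus strand: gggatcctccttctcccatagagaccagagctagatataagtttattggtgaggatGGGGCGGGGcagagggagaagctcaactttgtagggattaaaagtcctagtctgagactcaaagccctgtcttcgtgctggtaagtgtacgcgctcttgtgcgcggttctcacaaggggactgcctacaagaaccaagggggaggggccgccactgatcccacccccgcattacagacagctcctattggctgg

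The labels were checked before the subunits were compared. Foxp3 was at 88.2 and 84.9 FPKM in untreated and DSS Treg and at 20.9 and 127 FPKM with the mock and Sox12 vectors. Of the 7 regulatory T cell markers listed, 3 were higher and 4 lower in DSS Treg (sum 815 and 798 FPKM). With Sox12, Foxp3 and Ikzf2 were higher and the other 5 lower, among them Nrp1 (23.6 and 5.94 FPKM), Folr4 (124 and 38.9 FPKM) and Tnfrsf18 (330 and 183 FPKM), with sums of 1316 and 1096 FPKM. Sox12 itself was at 1.56 FPKM in the mock library and 829 FPKM in the Sox12 library. T cell markers (Cd3e, Cd3d, Cd3g, Cd4, Cd5, Cd28, Lck) summed to 1978 and 1952 FPKM in the Treg libraries and to 1378 and 1110 FPKM in the vector libraries. Markers of other cells also moved with the groups, some up and some down. In the DSS experiment 11 of 11 erythroid markers were higher in DSS Treg (sum 649 and 973 FPKM), as were 6 of 6 listed basophil and mast cell markers (10.1 and 32.2 FPKM) and 12 of 12 proliferation genes (419 and 485 FPKM). The 6 listed neutrophil and myeloid precursor markers summed to 22.0 and 35.0 FPKM. Of these Mpo, Prtn3, Ctsg and Elane were higher in DSS Treg, while S100a9 was lower, at 1.19 and 0.449 FPKM, as was S100a8, at 1.08 and 0.678 FPKM. Of 4 plasma cell markers 3 were lower in DSS Treg (sum 341 and 292 FPKM), among them Igj at 277 and 231 FPKM. The 3 listed NK and CD8 T cell markers were all lower (27.1 and 23.3 FPKM). Of 2 macrophage markers 1 was higher and 1 lower, as with the 2 B cell markers. In the vector experiment 7 of 7 NK and CD8 T cell markers were higher with Sox12 (111 and 289 FPKM). The summed erythroid markers were 75.6 and 21.0 FPKM with Car1 and Slc4a1 at 0 in both libraries. Most of that sum was beta globin, with Beta-s at 25.5 and 5.05 FPKM beside Hbb-b1 at 46.6 and 9.27 FPKM, while alpha globin was higher with Sox12, Hba-a1 at 1.74 and 4.23 FPKM. Their part in the results below was not tested, and in bulk RNA fewer cells of a type and less RNA per cell cannot be told apart.

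**Figure D1:**
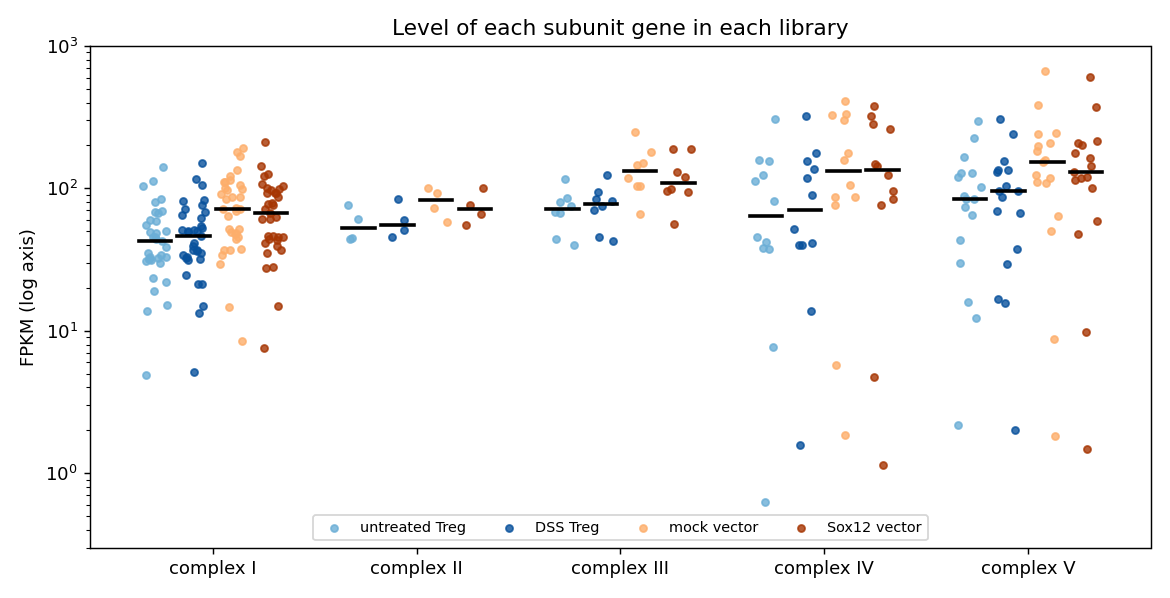
Level of each subunit gene past the filter in FPKM (log axis) by complex and library; each point is 1 gene, each black bar the median, and Ndufs5 is not drawn. Most points lie between 10 and 1000 FPKM in all 4 libraries, the medians of the vector libraries lie above those of the Treg libraries in every complex, and the lowest points of complex IV and complex V are Cox7a1 and Atp5s.

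The 3 most abundant subunit genes were the same in both experiments. Cox4i1, which encodes the main isoform of the largest nuclear subunit of complex IV, was at 306 FPKM in untreated Treg, 322 in DSS Treg, 408 with the mock vector and 379 with the Sox12 vector. Atp5b, the catalytic beta subunit of F1, was at 295, 309, 666 and 607 FPKM in the same order. Atp5a1, the alpha subunit of F1, was at 226, 239, 384 and 373 FPKM. Apart from Ndufs5, described below, the lowest complex I gene was Ndufa11, an accessory membrane subunit, at 4.90, 5.10, 8.50 and 7.62 FPKM. Complex II had the narrowest spread, with a highest gene 1.72 times the lowest in untreated Treg and 1.76 times with the mock vector, against 28.6 and 22.8 times in complex I. The order of the 76 genes was much the same between libraries, with a Spearman correlation of levels of 0.99 between the Treg libraries, 0.98 between the vector libraries and 0.92 between untreated Treg and mock vector. This is a description over genes, which share the library.

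Subunit genes were slightly higher in DSS Treg than in untreated Treg. Changes are given as differences of log2(FPKM + 1), a scale that understates the change of low genes. Of 77 genes, 62 were higher and 15 lower, with a median change of 0.07 and the middle 50% between 0.02 and 0.13. Over the 10545 genes past the filter the median was close to this, at 0.05. Of those genes 66.1% were higher by any amount, against 80.5% of the subunit genes. With the median change of all genes set to 0, the split of the subunit genes was 43 higher and 34 lower, and with the 75th percentiles made equal it was 50 and 27. Among genes at a mean of 50 FPKM or more, 34 of 39 subunit genes were higher (median 0.07), against 59.3% of 1209 genes (median 0.02).

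Few subunit genes passed a rule of size in the DSS experiment. A change of at least 1 in size, called 2 times here, was passed upward by 0 subunit genes against a background of 0.19% of all genes, and downward by Ndufs5 alone against 0.0759%. A smaller size rule, a change of at least 0.32, was passed upward by 3 subunit genes (Cox6b2, Cox7a1 and Atp5k) against 4.5% of all genes, and downward by 1 (Ndufs5) against 1.85%. All 3 that passed upward have means under 20 FPKM. At a mean of at least 20 FPKM, 58 subunit genes were higher, 10 lower and 0 passed the smaller size rule either way. Of all 3627 genes at that level 64.8% were higher, and only 56 passed that rule upward and 64 downward. The 0 is therefore not particular to the subunit genes. The library depth of the Treg table is unknown, so the counting error of these values is not known either.

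The 5 complexes differed little in the DSS experiment. Median changes were 0.12 for complex IV (11 of 12 genes higher), 0.10 for complex III (8 of 8), 0.09 for complex II (3 of 4), and 0.05 for complexes I (29 of 36) and V (11 of 17). Complex IV stood first through 2 low genes, Cox6b2 and Cox7a1, and Cox7a1 passed the filter through the DSS library alone. The 10 other genes of complex IV had a median of 0.10, level with complex III. In summed FPKM, DSS Treg were 4.33% above untreated Treg in complex I, 6.78% in complex II, 7.29% in complex III, 7.09% in complex IV and 3.57% in complex V. Setting the median change of all genes to 0 left medians of 0.05 for complex III, with 6 of 8 genes higher, 0.07 for complex IV with 10 of 12 higher, 0.04 for complex II with 2 of 4 higher, and -0.00 for complexes I and V with 17 of 36 and 8 of 17 higher. Complex IV had the highest median, or one level with complex III, in the 12 settings that compare medians, and complex III led in the setting that compares summed FPKM. Most of these settings move all complexes nearly alike or touch neither of these complexes, so the count does not measure how firm the order is. The spread of genes within each complex is wider than the gaps between these medians.

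**Figure D2:**
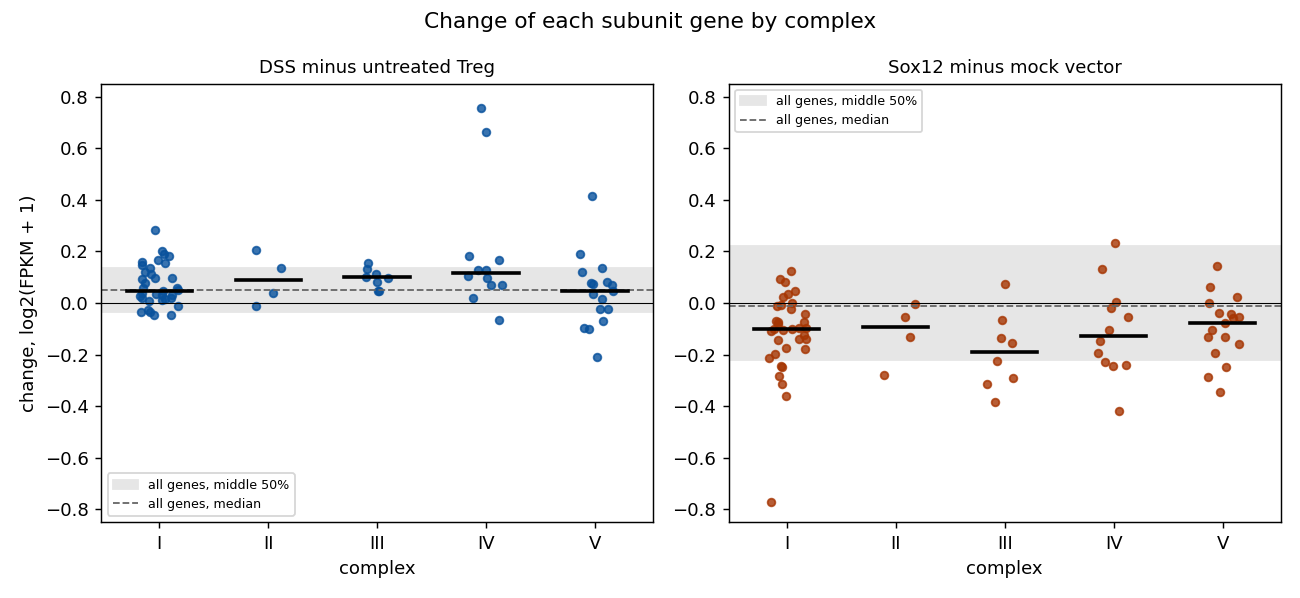
Change of each subunit gene in log2(FPKM + 1) by complex, DSS minus untreated Treg on the left and Sox12 minus mock vector on the right; points are genes, black bars medians, the grey band the middle 50% of all genes and the dashed line their median. Ndufs5 lies outside the left panel at -3.35 and is not drawn. Points of complex III lie above 0 on the left and, apart from Uqcrh, below 0 on the right.

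Subunit genes were slightly lower with the Sox12 vector than with the mock vector. Of 76 genes past the filter, 14 were higher and 62 lower, with a median change of -0.10 and the middle 50% between -0.20 and -0.02. Over all 10822 genes 51.1% were lower by any amount and the median was -0.01. Among genes at a mean of 50 FPKM or more, 47 of 57 subunit genes were lower, against 58.7% of 1632 genes, whose median was -0.06. When totals were made equal without the 20 highest genes, the split of the subunit genes was 26 higher and 50 lower, with a median of -0.05 against 0.04 for all genes.

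No subunit gene passed the 2 times rule in the vector experiment, where 4.85% of all genes passed it upward and 1.91% downward. The smaller size rule was passed upward by 0 subunit genes against 18.9% of all genes, and downward by 5 (Ndufv3, Cox7a1, Uqcrq, Ndufa2 and Atp5g2) against 16.9%. Both shares are below the background, so the differences of single subunit genes were small by the measure of this experiment. The low values of the vector table allow a rough depth, with 43.0 and 44.9 fragments per kilobase at 1 FPKM in the mock and Sox12 vector libraries. At that depth a subunit gene had a median of 2905 and 2788 fragments and its change a median counting error (SE) of 0.04, and 42 genes were lower and 5 higher by more than 1.96 times their own counting error. The same count was not made over all genes, so it cannot be read as particular to the subunit genes. With this many fragments small differences pass the cut, which describes counting noise and is not a test between groups. Differences between animals or between library preparations are not part of that error.

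Complex III had the lowest median of the 5 complexes in the vector experiment. Its median change was -0.19 with 7 of 8 genes lower, against -0.13 for complex IV (9 of 12 lower), -0.10 for complex I (29 of 35), -0.09 for complex II (4 of 4) and -0.08 for complex V (13 of 17). Complex III was lowest in all 13 settings, the reported one among them, between -0.22 and -0.13. Most of these settings move all complexes nearly alike or leave the complex III genes as they are. They could hardly change the order, so the count does not measure how firm it is. Complex II was lower in 4 of 4 genes as deposited, but in 2 of 4 when totals were made equal without the 20 highest genes. The summed FPKM of complex III was 1116 with the mock vector and 977 with Sox12, a difference of -12.5%, against -6.78% to -8.54% for the other complexes. No test of the difference between complexes was made, since genes of a library are not replicates.

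Complex I takes electrons from NADH through a core of flavin and iron-sulfur subunits, surrounded by accessory subunits that stabilise it. All 7 nuclear core genes were higher in DSS Treg, with a median of 0.12, and stayed so under each scaling tried. The scalings move all genes nearly alike and the lowest of the 7 changes was 0.06, so this does not measure how firm the direction is. Ndufs3, an iron-sulfur fraction subunit, had the largest of these changes, at 31.8 FPKM in untreated Treg and 36.8 in DSS Treg, a change of 0.20. Ndufv1, which binds the flavin and NADH, was at 32.2 and 36.6 FPKM, a change of 0.18. Smaller differences in Treg were those of Ndufs7, at 45.6 and 49.3 FPKM, Ndufs8 at 30.9 and 33.0 FPKM and Ndufs1, which carries several iron-sulfur clusters, at 29.9 and 31.2 FPKM. Of the 29 accessory genes 22 were higher in DSS Treg, with a median of 0.03, and 10 of 29 when the median of all genes was set to 0. In the vector experiment 5 of the 7 core genes were lower (median -0.07), and 4 when totals were made equal without the 20 highest genes. Ndufv2, a core iron-sulfur subunit, had the largest of these, at 72.8 FPKM with the mock vector and 62.6 with Sox12, a change of -0.21, after 42.8 and 46.6 FPKM in Treg. Ndufs7 was at 48.9 and 43.1 FPKM in the vector libraries, Ndufs8 at 49.6 and 46.2 FPKM and Ndufs1 at 37.0 and 35.2 FPKM. Ndufs3 was higher with Sox12, at 44.2 and 45.2 FPKM.

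Ndufv3 had the largest difference of any subunit gene in the vector experiment. It encodes an accessory subunit that sits at the NADH-oxidising tip of complex I. Its level was 67.2 FPKM in untreated Treg, 68.2 in DSS Treg, 167 with the mock vector and 97.8 with Sox12. The Treg libraries were alike, while the vector libraries differed, with a change of -0.77 from mock to Sox12 and a counting error of 0.03. Its partners at the same tip differed less, with Ndufv2 as given above and Ndufv1 at 37.5 and 36.9 FPKM in the vector libraries. Ndufa2, another accessory subunit, was at 45.3, 50.2, 91.4 and 71.1 FPKM in the same order of libraries, a change of 0.15 with DSS and -0.36 with Sox12. Ndufa3 was at 140, 150, 179 and 144 FPKM, a change of 0.09 and then -0.31. Ndufa7 had the largest upward change of complex I in DSS Treg, at 33.9 and 41.5 FPKM (0.28), and was at 69.3 and 61.3 FPKM in the vector libraries (-0.17). Ndufa4 went the other way with Sox12, at 193 and 210 FPKM, a change of 0.12, and was at 113 and 116 FPKM in Treg. Ndufa6 was at 105 FPKM in both Treg libraries and at 99.6 and 92.2 FPKM in the vector libraries. Apart from Ndufs5, the lowest change of complex I with DSS was that of Ndufs4, at 13.7 and 13.2 FPKM (-0.05).

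Ndufs5, an accessory subunit of complex I, was listed at 9.20 FPKM in untreated Treg, 0.00048 in DSS Treg, 0.0213 with the mock vector and 0.00119 with Sox12. Only the untreated Treg library was above 0.1 FPKM. BC002163, annotated as a processed pseudogene and 99.4% identical to Ndufs5 over 319 aligned bases, was at 2.59, 16.1, 67.6 and 60.2 FPKM in the same libraries. The summed level of the pair was 11.8, 16.1, 67.6 and 60.2 FPKM, so the change with DSS was -3.35 for Ndufs5 alone and 0.42 for the sum, the opposite sign. In the vector experiment the sum changed by -0.16. Reads that match both copies could have been assigned to either, and how the authors assigned them is not given in the sources used here. Only 4 genes of the Treg table were below 0.01 FPKM in one library and above 1 FPKM in the other.

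**Figure D3:**
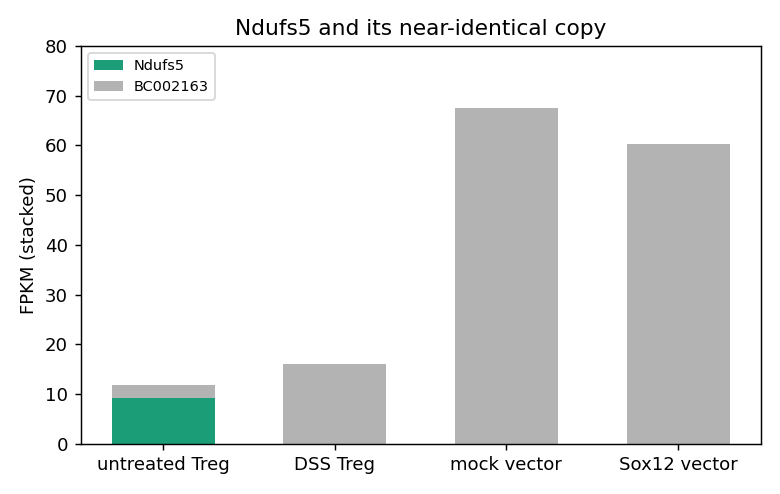
FPKM of Ndufs5 (green) and of its near-identical copy BC002163 (grey), stacked for each of the 4 libraries. Ndufs5 is visible only in untreated Treg, at 9.20 of a summed 11.8 FPKM.

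Near-identical copies touch other subunit genes as well. In the GENCODE annotation 19 of the 82 genes had a copy of at least 95% identity over 200 or more aligned bases, and of these copies only BC002163 and Gm10012 were listed in the tables under those names. Gm10012, a copy of Cox7c, was at 53.1, 62.8, 107 and 116 FPKM, beside 45.3, 51.6, 87.3 and 95.8 FPKM for Cox7c itself. Both members of that pair were higher with DSS and higher with Sox12. The levels of these 19 genes are uncertain where reads could be split. Some subunit genes also overlap a gene on the other strand, such as Atp5j with Gabpa and Atp5d with Cbarp, and whether the quantification used strand is not given in the sources used here.

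Complex II, succinate dehydrogenase, is also an enzyme of the citric acid cycle. Sdha, its flavoprotein, was at 76.3, 83.9, 93.2 and 76.7 FPKM in untreated Treg, DSS Treg, mock vector and Sox12 vector, a change of 0.14 with DSS and -0.28 with Sox12. Sdhb, the iron-sulfur subunit that joins it, differed little, at 60.4 and 59.9 FPKM in Treg and 101 FPKM in both vector libraries. Of the membrane anchors, Sdhd was at 44.3 and 51.3 FPKM in Treg (0.21) and 72.9 and 66.4 FPKM in the vector libraries (-0.13). Sdhc was at 44.6 and 45.8 FPKM in Treg and 57.7 and 55.5 FPKM in the vector libraries.

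Complex III, the cytochrome bc1 complex, passes electrons from ubiquinol to cytochrome c. Its 8 genes were all higher in DSS Treg, by 0.05 to 0.15, though 2 of them lay below 0 when the median change of all genes was set to 0. With Sox12 the largest change was that of Uqcrq, a small membrane subunit, at 248 FPKM with the mock vector and 190 with Sox12 (-0.39, counting error 0.03), and at 84.9 and 94.5 FPKM in untreated and DSS Treg (0.15). Uqcr10, another small subunit, was at 150 and 121 FPKM (-0.31), and at 68.5 and 75.1 FPKM in Treg (0.13). The core protein Uqcrc2 was at 118 and 96.0 FPKM (-0.29), and the Rieske iron-sulfur protein Uqcrfs1 at 65.9 and 56.3 FPKM (-0.22), after 40.0 and 43.0 FPKM in Treg. Uqcr11 was at 79.7 and 84.5 FPKM in Treg and 146 and 131 FPKM in the vector libraries. Uqcrh, the hinge protein that helps dock cytochrome c, was the exception, at 180 and 190 FPKM (0.07), and was at 117 and 125 FPKM in Treg. Cyc1, the cytochrome c1 of the same complex, which the name pattern does not cover, was at 91.9 and 92.3 FPKM. Its difference was smaller than that of each of the 8 genes.

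**Figure D4:**
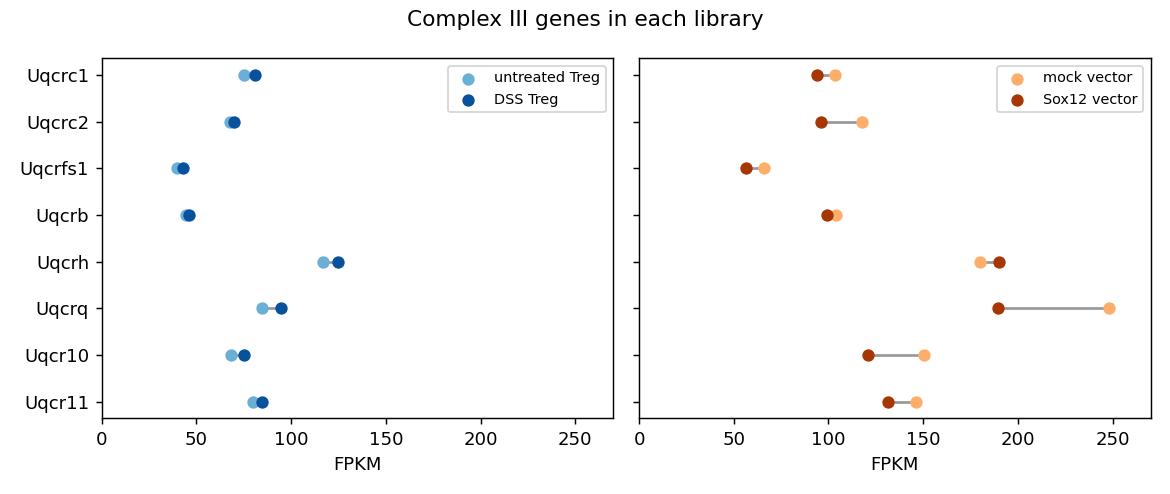
FPKM of the 8 complex III genes in untreated and DSS Treg (left) and with the mock and Sox12 vectors (right), each pair joined by a line. On the left each DSS point lies right of its untreated point; on the right each Sox12 point lies left of its mock point except for Uqcrh, and the longest line is that of Uqcrq, from 248 to 190 FPKM.

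Complex IV, cytochrome c oxidase, has subunits with isoforms limited to certain tissues. The isoforms found in most tissues made up nearly all of the RNA: Cox4i2 and Cox6a2 were at 0.363 FPKM or less in the vector libraries, and Cox7b2, Cox8b and Cox8c were listed at 0 in both. These 5 genes are not listed in the Treg table, which holds genes above 1 FPKM in at least 1 library. Of the 10 ubiquitous genes 9 were higher in DSS Treg (median 0.10), and 8 under each other scaling tried. With Sox12, 7 of these 10 were lower (median -0.08), and 5 when totals were made equal without the 20 highest genes. Cox6c was at 177 FPKM with the mock vector and 149 with Sox12 (-0.24), and Cox6a1 at 333 and 284 FPKM (-0.23). Cox8a was at 159 and 178 FPKM in Treg (0.17) and at 300 and 262 FPKM in the vector libraries (-0.19). Cox6b1 was at 125 and 136 FPKM in Treg and at 328 and 324 FPKM in the vector libraries. Cox7b was the only ubiquitous gene lower in DSS Treg as deposited, at 41.7 and 39.7 FPKM (-0.07), and was at 87.6 and 84.4 FPKM in the vector libraries. Cox7a2 was at 38.2 and 41.1 FPKM in Treg and at 76.3 and 76.6 FPKM in the vector libraries. Cox5a, which with Cox5b sits on the matrix side of the enzyme, had the largest upward change of any subunit gene with Sox12, at 106 and 124 FPKM (0.23, counting error 0.04), while Cox5b was at 159 and 143 FPKM (-0.15).

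Tissue-limited isoforms gave the largest upward changes in DSS Treg. Cox6b2, known as the testis isoform of subunit VIb, was at 7.74 FPKM in untreated Treg and 13.8 in DSS Treg, and at 5.79 and 4.73 FPKM with the mock and Sox12 vectors. DSS Treg stood above the other 3 libraries. Its share of the Cox6b RNA was 5.84% and 9.17% in Treg, and 1.73% and 1.44% in the vector libraries. Cox7a1, known as the heart and muscle isoform of subunit VIIa, was at 0.624 FPKM in untreated Treg and 1.57 in DSS Treg, and at 1.87 and 1.14 FPKM in the vector libraries. It was the only subunit gene past the smaller size rule in both experiments, upward with DSS (0.66) and downward with Sox12 (-0.42). With a pseudocount of 5 neither change passed it, at 0.22 and -0.16. A pseudocount of 0.1 gave changes of 1.21 (DSS) and -0.66 (Sox12). Its level is near the filter, which it passed in Treg through the DSS library alone, and its counting error in the vector experiment was 0.39, close to the change itself.

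Complex V joins a catalytic head (F1) to a rotating ring of c subunits in the membrane. All 5 F1 genes were higher in DSS Treg (median 0.07), and 4 of 5 under each other scaling tried. With Sox12 all 5 were lower (median -0.13), and 4 of 5 when totals were made equal without the 20 highest genes. Atp5e, the epsilon subunit of the central stalk, was at 159 FPKM with the mock vector and 130 with Sox12 (-0.29), and Atp5d, the delta subunit, at 246 and 208 FPKM (-0.25). The alpha subunit gene Atp5a1 differed least, at 384 and 373 FPKM (-0.04).

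The c ring is built from a single protein made by 3 genes that differ in their targeting sequence. Atp5g1, Atp5g2 and Atp5g3 made up 12.2%, 52.0% and 35.7% of the c ring RNA in untreated Treg, and 11.3%, 51.7% and 37.0% in DSS Treg. With the mock vector the shares were 12.6%, 40.4% and 47.0%, and with Sox12 13.4%, 37.3% and 49.3%. Atp5g2 thus led in the Treg libraries and Atp5g3 in the vector libraries, in tables that were made separately. All 3 were lower with Sox12 under each scaling tried, with Atp5g2 at 207 and 163 FPKM (-0.34). The scalings move all genes nearly alike, so this does not measure how firm the direction is. The summed c ring RNA was 512 FPKM with the mock vector and 437 with Sox12.

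The other parts of ATP synthase did not share 1 direction. Of the genes below, Atp5k, Atp5l, Atp5h, Atp5f1 and Atp5o have near-identical copies, so their levels are uncertain where reads could be split. Atp5j2 and Atp5j have none. Atp5k, the e subunit, which helps join 2 enzymes into a dimer, was at 12.4 FPKM in untreated Treg and 16.8 in DSS Treg (0.41), and at 49.8 and 48.0 FPKM in the vector libraries. Atp5l, the g subunit beside it, was at 84.2 and 96.1 FPKM in Treg (0.19) and 118 FPKM in both vector libraries. Atp5j2, the f subunit, had the lowest change of the enzyme's genes with DSS, at 43.5 and 37.5 FPKM (-0.21), and was at 110 and 115 FPKM in the vector libraries (0.06). In the peripheral stalk, which holds the head still, Atp5h was at 166 and 155 FPKM in Treg (-0.10) and 199 and 202 FPKM in the vector libraries. In Treg Atp5j was at 74.0 and 68.9 FPKM (-0.10), Atp5f1 at 84.7 and 86.9 FPKM, and Atp5o at 64.9 and 67.1 FPKM.

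The experiments were then set side by side gene by gene. They share no library. Of the 76 genes past the filter in both, 52 (68.4%) were higher with DSS and lower with Sox12, against 33.5% of 9958 genes. A further 10 were higher in both, 10 lower in both and 4 lower with DSS and higher with Sox12. The size of the change in one experiment said little about that in the other, with a Spearman correlation over the 76 genes of -0.17, and of 0.04 over all genes. The shares follow from the direction of each experiment, which depends on the scaling as given above.

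**Figure D5:**
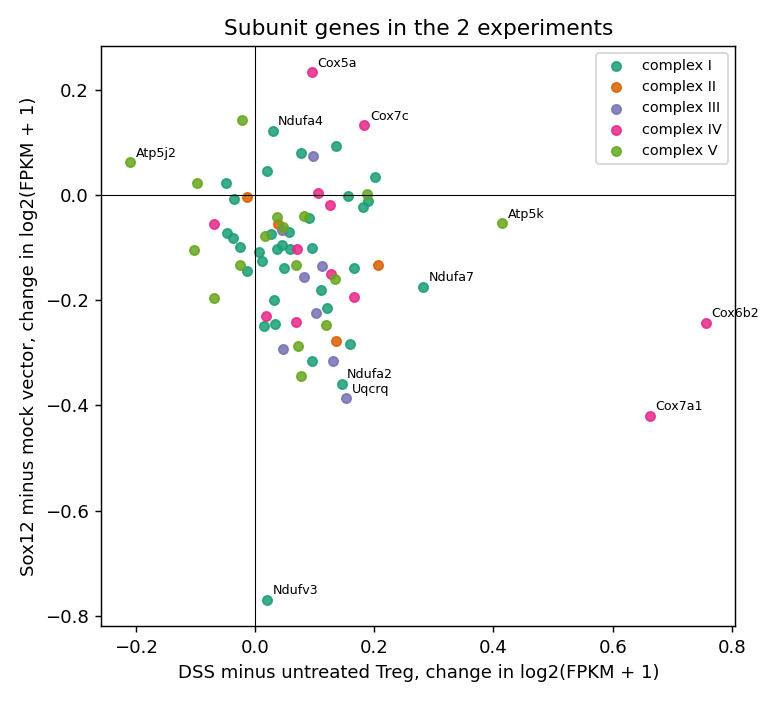
Change of each subunit gene in the vector experiment (y axis) against its change in the DSS experiment (x axis), both in log2(FPKM + 1), coloured by complex, for the 76 genes past the filter in both. The lower right part, higher with DSS and lower with Sox12, holds 52 points; Ndufv3, Cox6b2 and Cox7a1 lie far from the rest.

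Genes that build or supply the chain were read from lists of the same pathway. Over all genes past the filter, 66.1% were higher with DSS and 51.1% lower with Sox12, and the list counts should be read beside these shares. Of 30 assembly factors, which insert cofactors and join subunits, 14 were higher and 16 lower in DSS Treg (median -0.02), and 7 higher and 23 lower with Sox12 (median -0.10; 11 and 19 when totals were made equal without the 20 highest genes). Cox17, the copper chaperone of complex IV, was at 76.5 and 77.2 FPKM in Treg, 354 with the mock vector and 194 with Sox12 (-0.86), and the complex I assembly factor Ndufaf3 at 9.41 and 6.10 FPKM (-0.55). Ndufaf2 went the other way, at 24.3 and 31.1 FPKM (0.34). Of 13 genes of coenzyme Q synthesis, 7 were higher and 6 lower with DSS (median 0.03), and 3 higher and 10 lower with Sox12 (median -0.18). Cytochrome c itself, Cycs, was at 12.2 FPKM in both Treg libraries and at 33.7 and 32.3 FPKM in the vector libraries.

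Of 76 mitochondrial ribosomal protein genes, which serve the translation of the mitochondrially encoded subunits, 52 were higher with DSS (median 0.07). This share is near the 66.1% over all genes (median 0.05), and 42 were higher with the median of all genes set to 0. With Sox12, 58 of these 76 were lower (median -0.07), against 51.1% of all genes (median -0.01). With totals made equal without the 20 highest genes, 42 were lower. The largest changes with Sox12 were those of Mrps16 of the small subunit, at 78.4 and 55.4 FPKM (-0.49), and Mrpl24 of the large subunit, at 72.1 and 52.6 FPKM (-0.45). Another list held 17 genes of the citric acid cycle and of pyruvate dehydrogenase (Pdha1, Pdhb and Dlat). With DSS 14 of these were higher (median 0.08), and 11 with the median of all genes set to 0. In the vector experiment 12 were lower with Sox12 (median -0.09), and 10 with equal totals. Idh2, the NADP-dependent mitochondrial isocitrate dehydrogenase, was the only gene of these lists past the 2 times rule, at 21.0 FPKM with the mock vector and 61.6 with Sox12 (1.51). Pdha1 of pyruvate dehydrogenase was at 69.1 and 107 FPKM (0.63), while fumarase Fh1 was at 72.1 and 51.3 FPKM (-0.48).

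Regulators of mitochondrial biogenesis showed no common direction. Of 15 past the filter in Treg, 7 were higher and 8 lower (median -0.00), and of 14 in the vector experiment 7 were higher and 7 lower (median 0.01). Nrf1, which encodes NRF-1, was at 20.9 and 20.3 FPKM in Treg and 20.9 and 23.1 FPKM in the vector libraries. Gabpa, the DNA-binding part of GABP, was at 19.9 and 22.4 FPKM in Treg and 22.7 and 22.5 FPKM in the vector libraries. Tfb1m, a mitochondrial ribosomal RNA methyltransferase, was at 12.9 and 8.19 FPKM with the mock and Sox12 vectors (-0.60), and Polg, the mitochondrial DNA polymerase, at 19.9 and 14.0 FPKM (-0.48). Esrra, the estrogen-related receptor alpha, was at 7.93 and 10.4 FPKM (0.35). Atpif1, which blocks ATP hydrolysis by complex V, was higher in both experiments, at 76.5 and 93.6 FPKM in Treg (0.29) and 243 and 349 FPKM in the vector libraries (0.52). It was read from a list of inhibitors and alternative isoforms, whose other genes past the filter were higher with DSS but lower with Sox12. Higd1a was at 14.4 and 9.94 FPKM in the vector libraries (-0.49) and Higd2a at 94.8 and 85.7 FPKM (-0.14). The genes of complex V itself were mostly lower in the vector experiment, as given above.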

How the data were processed

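RNA-seq of 4 mouse libraries, 1 per group, was used as processed and deposited. Libraries were made from total RNA with a strand-specific kit, per the labels' protocols, and the submitters' processing notes name Cufflinks and mm9 without versions. For the aligner, the annotation and the use of strand, nothing is given in the sources used here. The Treg table holds FPKM that the authors deposited, with their ratio of DSS to untreated, and lists genes above 1 FPKM in at least 1 library. The vector table holds log2(FPKM + 1) values that the authors deposited, with their log2 difference, and these were turned back to FPKM. The deposited ratio and difference were recomputed within 0.000449 (relative) and 5e-10. Rows whose symbol had become a date or serial number, 16 and 25, were left out.

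Changes, counts and medians were computed with pandas 2.3.3 on Python 3.11.15, with a pseudocount of 1, over genes whose mean was at least 1 FPKM. No test was run. The rule for named genes takes, per complex and experiment, the 3 highest levels, the largest change each way at a mean of at least 5 FPKM, members past a size rule, core subunits and isoform sets, and up to 3 genes of each list. Other genes were named after their values were seen, and 2 that the rule takes are not reported here. The members and lists were chosen with earlier results of these data known. Transcript lengths and names came from GENCODE vM21 and promoters from RefSeq on GRCm38.p6, another build than the authors', so coordinates are those of the promoter table. The NRF-1 and YY1 motifs were shortened from longer strings after the data were seen. Copies were sought with BLAST+ 2.17.0. Depth was estimated for the vector libraries from 21 of 244 and 28 of 286 single-transcript genes at the most frequent value, so it rests on few genes. The steps were tested on simulated data. Alternatives were other pseudocounts, filters and scalings, and leaving out genes with copies.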

Additional observations from a re-analysis of the deposited data

How the results depend on the processing

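No paired analysis was possible because each group holds 1 library, and leaving out a replicate was not possible for the same reason. Summary medians that moved by more than 0.05 (log2) and counts that moved by more than 1.5 times are given here, and the cause was not tested unless a setting's construction shows it. In the DSS experiment a pseudocount of 0.1 put 1 subunit gene past 2 times higher, Cox7a1, and a pseudocount of 5 took it below the smaller size rule (0.22), leaving 2 genes past it. The change of Cox6b2 was 0.82 and 0.56 with these pseudocounts, that of Ndufs5 -6.53 and -1.51, and that of Atp5k 0.33 with the larger one. The counts past the smaller size rule downward and 2 times lower were 0, in place of 1, with a mean of at least 5 FPKM, without Ndufs5, without genes that have a near-identical copy, at a mean of at least 20 FPKM, and with Ndufs5 and BC002163 summed, since each of these removes or replaces Ndufs5. The sum gave a change of 0.42, the reverse of Ndufs5 alone. The count past the smaller rule upward was 0 at a mean of at least 20 FPKM, which leaves out the 3 genes. Subunit genes lower numbered 34 with the median change of all genes set to 0, 27 with the 75th percentiles made equal and 9 without genes that have a copy. In the vector experiment the median of complex IV was -0.020 with no filter, which adds 5 genes at or near 0. Genes past the smaller rule downward numbered 8 with the 75th percentiles made equal. With totals made equal without the 20 highest genes this count was 3, the median of the subunit genes -0.045 with 26 higher, and the medians of complexes I to V were -0.044, -0.037, -0.13, -0.068 and -0.019, with all genes at 0.043. Without genes that have a copy, 9 were higher and the median of complex V was -0.15. The alternatives chosen after seeing the data were those that leave out Ndufs5, genes with copies or genes under 20 FPKM, and the sum. The median over all subunit genes ranged from 0.02 to 0.08 in the DSS experiment and from -0.14 to -0.05 in the vector experiment. Over all settings 85 values of single subunit genes moved by more than 0.05, most of them when totals were made equal, and 1 reversed. The depth of the Treg table is unknown.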
